A study of Mus musculus with 18 samples.

Results

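The sites described here are the 294 CLK:BMAL1 sites of the mouse liver that the deposited site table places in the class Intergenic_<10kb, out of 3217 sites in all (9.14%). Members were taken by that class name alone, which describes a position outside genes but, by the name, within 10 kb of one. The remaining 2923 sites fall into 1412 of the class Gene_body/Intron, 717 of Intergenic_>10kb, 583 of TSS (transcription start sites) and 211 of Gene_body. The distance of each site from its gene is not given in the table, so members near either limit of the class are not singled out. Identifiers consist of Koike_CLKBMAL1_P and a number from 1 to 3217, and sites are named here by that number; positions are in mm9. The study measured CLK on crosslinked liver chromatin of adult C57BL/6 mice, aged 3 to 6 months by the labels, kept in a light and dark cycle. Its labels give 18 libraries in 6 groups of 3: CLK ChIP after micrococcal nuclease digestion, CLK ChIP after sonication, and input of sonicated chromatin, each at 6 h (ZT06) and 22 h (ZT22) after lights on. Titles mark every animal as WT, and no knockout or treated group is among the libraries. The deposited ChIP profiles are means over sites of all classes, so the values below are properties of the sites in the table and of no single library, and none of them compares the groups of libraries.

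CLOCK (CLK) and BMAL1 form a heterodimer of basic helix-loop-helix transcription factors that binds E-box elements and drives rhythmic transcription. Its targets include the genes of the PER and CRY proteins, which repress the dimer in turn, and many genes of liver metabolism. In the liver it binds mostly by day, at promoters as well as at elements inside and between genes, and several sites often lie around 1 target gene. An intergenic site close to a gene can be an upstream or a downstream element, and the class does not say which. Genes near the sites are not named here, since the table gives coordinates in mm9 and no gene symbols, and the gene annotation at hand was of another build. For the same reason no sequence of a site is shown.

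Members had other CLK:BMAL1 sites near them more often than the remaining sites did. Another site lay within 10 kb of 116 of the 294 members, 39.5% (exact 95% interval 33.8 to 45.3%), against 856 of 2923 remaining sites, 29.3% (27.6 to 31.0%). The difference was 10.2 percentage points (Newcombe 95% interval 4.50 to 16.1). Within 3 kb the counts were 77 members, 26.2% (21.3 to 31.6%), and 553 remaining sites, 18.9% (17.5 to 20.4%), a difference of 7.27 points (2.35 to 12.8). All distances are between peak midpoints on the same chromosome. The interval within 10 kb stayed above 0 under all 31 alternatives computed. That within 3 kb included 0 without chromosome 7 (3.94 points), with overlapping peaks merged (4.29 points) and with sites grouped by chromosome. Both sites of a close pair count in these shares. Allowing for clusters of nearby sites, the intervals were 2.95 to 17.4 points within 10 kb and 0.14 to 14.4 points within 3 kb.

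The median distance from a member to the nearest other site was 18.9 kb, with quartiles of 2.77 and 133 kb. In all the remaining classes pooled, the median was 47.8 kb, with quartiles of 6.34 and 197 kb. By class it was 42.2 kb for Gene_body/Intron, 44.3 kb for Gene_body, 48.4 kb for Intergenic_>10kb and 58.15 kb for TSS. In a pair of 1 member and 1 remaining site, the member had the longer distance in 42.7% of all pairs (95% interval 39.3 to 46.2%, where 50% means no difference). Against single classes this share was 41.0% (37.0 to 44.97%) for TSS, 42.0% (38.1 to 45.9%) for Intergenic_>10kb and 43.5% (39.9 to 47.1%) for Gene_body/Intron. Against the 211 Gene_body sites it was 44.9% (39.9 to 50.006%), an interval that includes 50%. Isolated sites were rarer among members at a limit of 100 kb, and the interval included 0 at 1 Mb. No other site lay within 100 kb of 81 members, 27.6%, against 1125 remaining sites, 38.5%, a difference of -10.9 points (-16.0 to -5.29). None lay within 1 Mb of 12 members, 4.08%, against 152 remaining sites, 5.20%, a difference of -1.12 points (-3.05 to 1.89). By class, the interval at 100 kb included 0 against Gene_body (-7.52 points, -15.7 to 0.62). It was below 0 against each of the other classes. The most isolated member was site 2746 on chromosome 3, from 73513811 to 73514140, at 3987 kb from the nearest other site.

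**Figure D1:**
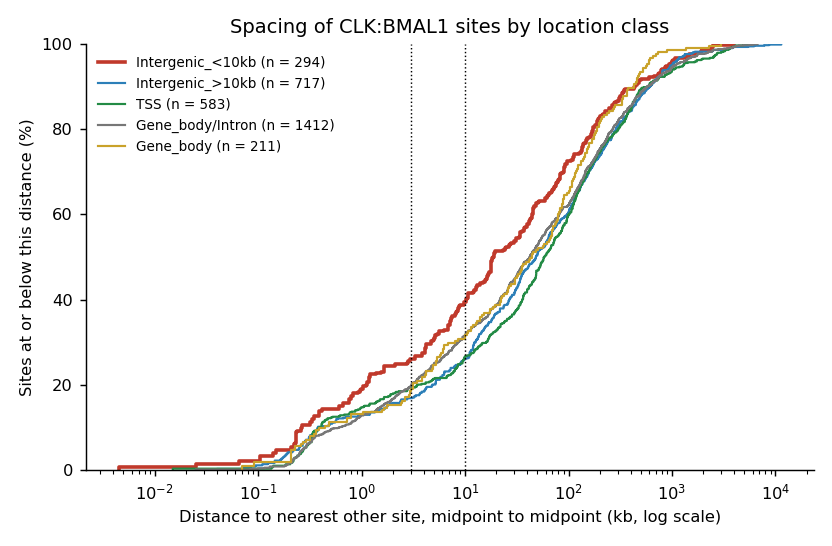
Cumulative share of sites (%) against the distance to the nearest other site of any class (kb, log scale), with 1 line per location class and dotted lines at 3 and 10 kb. The line of the 294 Intergenic_<10kb sites runs above those of the other classes at both marks, with 26.2% of members at or below 3 kb and 39.5% at or below 10 kb.

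Set against each class in turn, the difference in these 2 windows was largest for Intergenic_>10kb, whereas at 20 and 50 kb it was largest for TSS (18.8 and 15.8 points, against 14.7 and 12.0 for Intergenic_>10kb). Of the Intergenic_>10kb sites 187 of 717 sites, 26.1% (22.9 to 29.5%), had another site within 10 kb, 13.4 points fewer than members (7.01 to 19.8). Of the TSS sites 155 of 583, 26.6%, had one, 12.9 points fewer (6.29 to 19.5). Of the Gene_body/Intron sites 447 of 1412, 31.7%, had one, 7.80 points fewer (1.84 to 14.0). The smaller Gene_body class held 67 of 211, 31.8%, and its difference of 7.70 points had an interval that includes 0 (-0.80 to 15.9). Within 3 kb the differences were 9.31 points (3.79 to 15.2) for Intergenic_>10kb, 6.81 (1.01 to 12.9) for TSS, 6.43 (1.26 to 12.1) for Gene_body/Intron and 7.23 (-0.25 to 14.3) for Gene_body. With the nearest distance, the site number, the peak width and the share with a site of another class within 10 kb, 6 measures were compared with each of 4 classes. Some further shares are also set against single classes. None of the intervals, for these 24 comparisons, the further ones or those with all remaining sites, is adjusted for their number.

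**Figure D2:**
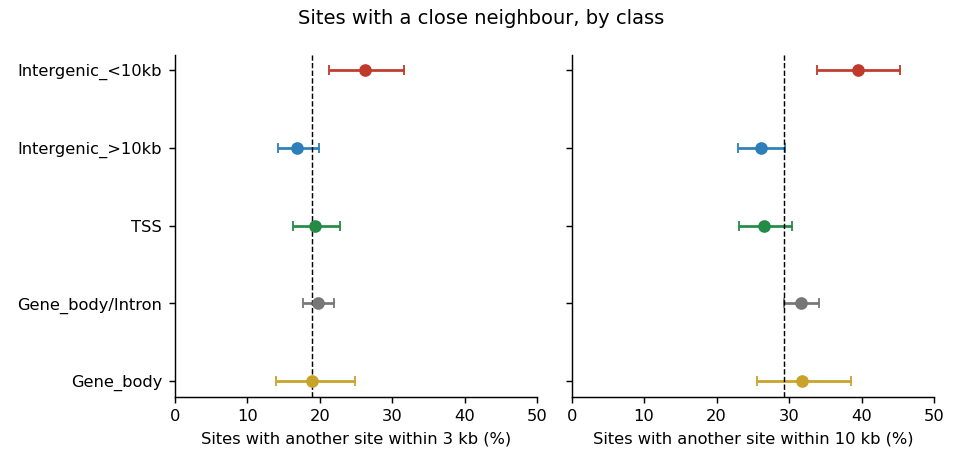
Share of sites (%) with another site within 3 kb (left) and within 10 kb (right) for each location class, with exact 95% binomial intervals; the dashed line is the share over all classes other than Intergenic_<10kb, 18.9% and 29.3%. Members stand highest in both panels, at 26.2% and 39.5%.

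Close neighbours of members were mostly other members, and this share fell with distance. At up to 500 bp, the nearest site was itself a member for 39 of 42 members, 92.9% (80.5 to 98.5%). From 500 bp to 3 kb it was a member for 23 of 35, 65.7% (47.8 to 80.9%), and from 3 to 10 kb for 13 of 39, 33.3% (19.1 to 50.2%). Members make up 9.11% of all sites other than the one considered, and a shared class at short range is partly given by the shared position. Sites of other classes also had neighbours of their own kind up to 3 kb away: 119 of 121 for Intergenic_>10kb (98.3%), 247 of 279 for Gene_body/Intron (88.5%), 71 of 113 for TSS (62.8%) and 25 of 40 for Gene_body (62.5%). Members, at 62 of 77 (80.5%), lay between these.

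TSS sites were the second most frequent neighbours. They were nearest for 2 of 42 members at up to 500 bp (4.76%), for 10 of 35 from 500 bp to 3 kb (28.6%) and for 11 of 39 from 3 to 10 kb (28.2%), where TSS sites are 18.1% of all sites. The exact interval was below 18.1% at up to 500 bp (0.58 to 16.2%) and included it in the other bins (14.6 to 46.3% and 15.0 to 44.9%). Gene_body/Intron sites, 43.9% of all sites, were nearest for 1 of 77 members within 3 kb, 1.30% (0.033 to 7.02%), and for 9 of 39 from 3 to 10 kb, 23.1% (11.1 to 39.3%). An Intergenic_>10kb site was the nearest for 4 of the 116 members with a neighbour within 10 kb, and a Gene_body site for another 4.

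**Figure D3:**
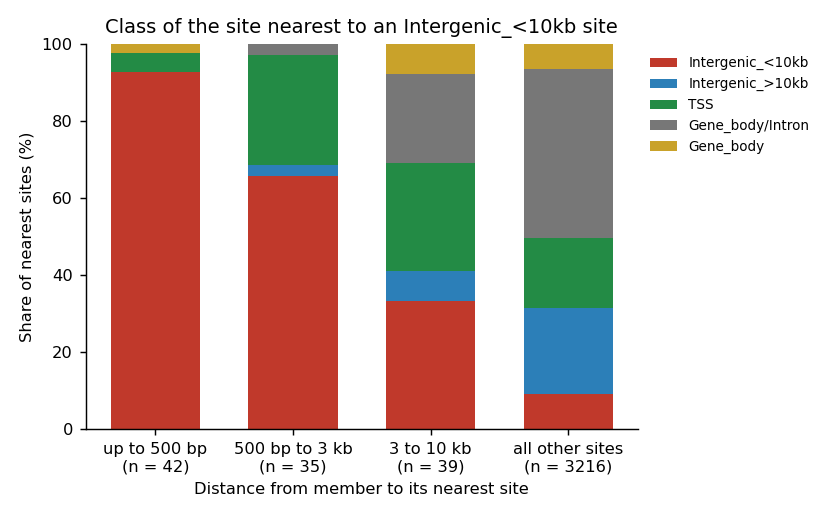
Stacked bars of the class of the site nearest to a member (% of nearest sites) for members whose nearest site lies up to 500 bp, 500 bp to 3 kb or 3 to 10 kb away, beside the make-up of all other sites. The share of members among the nearest sites is 92.9%, 65.7% and 33.3% in the 3 distance bins, against 9.11% of all other sites.

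Sites of a different class were within 10 kb of members more often than of the remaining sites pooled, but the classes differed widely in this. A site of another class lay within 10 kb of 48 of 294 members, 16.3% (12.3 to 21.1%), against 248 of 2923 remaining sites, 8.48%, a difference of 7.84 points (3.91 to 12.6). The share was 24.2% in Gene_body, 16.1% in TSS, 6.30% in Gene_body/Intron and 1.95% in Intergenic_>10kb. By its name, Intergenic_>10kb lies over 10 kb from a gene. Even so, 5 of its 717 sites had a Gene_body site within 10 kb. How far the definition of the classes sets the pooled difference was not tested. Members exceeded Gene_body/Intron by 10.0 points (5.99 to 14.8) and Intergenic_>10kb by 14.4 points (10.4 to 19.1), differed from Gene_body by -7.84 points (-15.1 to -0.80), and differed from TSS by 0.20 points (-4.76 to 5.62). Sites of the own class within 10 kb were about as frequent for members, 25.5%, as for the pooled rest, 23.2%, with a difference of 2.31 points (-2.59 to 7.80). By class, members exceeded TSS by 12.6 points (7.14 to 18.5) and Gene_body by 8.45 (1.13 to 15.4). The interval included 0 against Gene_body/Intron (-1.90, -7.12 to 3.84) and Intergenic_>10kb (0.41, -5.29 to 6.49). Within 3 kb it was the own-class share whose interval against the pooled rest was above 0. The own-class shares were 21.1% and 15.9%, a difference of 5.15 points (0.66 to 10.3). Those of another class were 5.10% and 3.87%, a difference of 1.24 points (-0.89 to 4.44). By class the own-class interval was above 0 against TSS (8.91 points, 3.74 to 14.5) and Gene_body (7.82, 1.06 to 14.2). It included 0 against Gene_body/Intron (3.52, -1.23 to 8.89) and Intergenic_>10kb (4.49, -0.67 to 10.1).

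A TSS site lay within 10 kb of 25 members, 8.50% (5.58 to 12.3%), against 162 remaining sites, 5.54%. The difference of 2.96 points (0.14 to 6.79) counts TSS sites near other TSS sites among the rest. By class the share was 12.9% in TSS, 12.3% in Gene_body, 4.25% in Gene_body/Intron and 0.14% in Intergenic_>10kb. The low share of this last class lowers that of the rest, and how far its name accounts for this was not tested. Within 3 kb, 12 members had a TSS site, 4.08%, against 3.83% of the remaining sites, a difference of 0.25 points (-1.64 to 3.23). The closest of these 12 was site 2134, 234.5 bp from TSS site 2547, and the next was site 483, 414.5 bp from TSS site 1158. Site 1311 lay 754.5 bp from TSS site 681, site 2541 lay 920 bp from site 291, site 3118 lay 970 bp from site 1779, and site 1300 lay 994.5 bp from site 591. Beyond 1 kb followed site 509 (1185 bp from site 1176), site 1448 (1200 bp from site 1559), site 2474 (1385 bp from site 2428), site 349 (2119.5 bp from site 648), site 2068 (2745 bp from site 1149) and site 2952 (2830 bp from site 1110). Their numbers ran from 349 to 3118, so these members were found early and late in the numbering. The median distance of a member to the nearest TSS site was 497 kb. It was 521 kb between TSS sites, 551 kb for Gene_body, 809 kb for Intergenic_>10kb and 947 kb for Gene_body/Intron.

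Some of the close neighbours were overlapping entries of the table. The peak of a member overlapped that of another site in 22 cases, 7.48% (4.75 to 11.1%), and in every case the other site was a member too. Among the remaining sites 103 of 2923 overlapped another, 3.52% (2.89 to 4.26%), a difference of 3.96 points (1.36 to 7.60). Counting also peaks whose edges were at most 10 bp apart, the counts were 34 members, 11.6%, and 227 remaining sites, 7.77%, a difference of 3.80 points (0.47 to 8.06). The interval again included 0 against Intergenic_>10kb (2.22 points, -1.73 to 6.80) and Gene_body (3.51, -1.97 to 8.62), but not against the other classes. In 6 members the peak lay wholly inside another or wholly around it. Sites 1727 and 2533 on chromosome 16 had midpoints 4.5 bp apart, the shortest distance in the table, with the narrower peak of 200 bp inside that of 309 bp. Sites 709 and 756 had midpoints 25 bp apart and shared 379 bp, and sites 439 and 1461 on chromosome 7 shared 220 bp. Sites 2230 and 2814 on chromosome 7 had midpoints 65 bp apart and shared 279 bp. After overlapping peaks were merged and the lowest-numbered kept, 283 members were left. Of these 58, 20.5%, had another site within 3 kb, against 16.2% of 2870 others, and the interval of the difference of 4.29 points included 0 (-0.22 to 9.54). Within 10 kb the merged shares were 34.3% and 26.9%, and the interval of that difference stayed above 0 (7.34 points, 1.80 to 13.3).

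Sites chained by midpoint distances of up to 10 kb formed 74 clusters of 2 or more sites that held at least 1 member, out of 414 such clusters in the table. They contained the 116 members with a neighbour, and the other 178 members stood alone. The cluster had 2 sites in 53 cases, 3 in 13 and 4 or more in 8. In 29 clusters every site was a member, 45 mixed members with another class, and 25 held a TSS site. Counted by member, 80 had 1 other site within 10 kb, 19 had 2, 9 had 3, 7 had 4 and 1 had 5. Having 2 or more other sites within 10 kb was seen for 36 members, 12.2%, and for 8.86% of the remaining sites, a difference of 3.38 points whose interval includes 0 (-0.059 to 7.74). By class the interval was above 0 against TSS (6.58 points, 2.66 to 11.1) and Intergenic_>10kb (4.02, 0.054 to 8.62). It included 0 against Gene_body/Intron (2.47, -1.19 to 6.95) and Gene_body (-1.50, -7.72 to 4.33).

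The cluster with the most members lay on chromosome 16, from 5134891 to 5140930 in mm9, and held 5 sites, all of them members. In order of position these were the nested pair of sites 1727 and 2533, then site 2684 from 5135971 to 5136240, site 1079 from 5136681 to 5137100 and site 2886 from 5140611 to 5140930. Their numbers lay between 1079 and 2886, none of them among the first 400. A cluster of 4 members on chromosome 7, spanning 1379 bp from 29167111 to 29168490, joined the widest member (site 439) with sites 1461, 2981 and 645. A cluster of 4 members on chromosome 11 held some of the lowest numbers of the table. Site 2 ran from 68908211 to 68908501, site 8 from 68908511 to 68908830, site 876 from 68911071 to 68911360 and site 29 from 68912161 to 68912611. Sites 2 and 8 were separated by 10 bp between their edges, and the whole cluster spanned 4400 bp.

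The cluster with the most sites among those with a member had 7, on chromosome 11 from 98634141 to 98650690. It ran in order from 3 Gene_body/Intron sites (72, 10 and 11) over 2 TSS sites (7 and 38) to 2 members, site 3 from 98644571 to 98645021 and site 1098 from 98650201 to 98650690. The members lay at one end of it, 5649.5 bp apart from each other. All sites of this cluster but 1098 had numbers of 72 or less.

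Members were spread over the chromosomes much as all sites were, with a low share on chromosome 17. Members were found on all 20 chromosomes of the table, with the most on chromosome 11 (30 of 249 sites, 12.0%, exact 95% interval 8.28 to 16.8%), chromosome 7 (25 of 226, 11.1%) and chromosome 8 (23 of 195, 11.8%). Chromosome 17 had 4 members among 154 sites, 2.60% (0.71 to 6.52%). The difference from the share on the other chromosomes was -6.87 points (-8.79 to -2.86). On the other 19 chromosomes the interval of that difference included 0. There were 20 such differences, and the intervals are not adjusted for that number. On chromosome 17, 0 of the 4 members had another site within 10 kb. Chromosome X held 1 member among 10 sites.

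Members with close neighbours were unevenly spread. The share with another site within 3 kb was above that of the remaining sites on 10 chromosomes, below it on 9 and 0 in both on chromosome X. Within 10 kb it was above on 11 and below on 8. On chromosome 7, 16 of 25 members (64.0%) had another site within 3 kb, against 43 of 201 remaining sites there (21.4%). On chromosome 11 the counts were 11 of 30 members (36.7%) and 39 of 219 remaining sites (17.8%), on chromosome 16 they were 7 of 15 (46.7%) and 18 of 110 (16.4%), and on chromosome 8 they were 9 of 23 (39.1%) and 28 of 172 (16.3%). Members were below the rest on chromosome 15, with 1 of 13 (7.69%) against 49 of 140 (35.0%), on chromosome 3, with 3 of 17 (17.6%) against 38 of 138 (27.5%), and on chromosome 4, with 3 of 18 (16.7%) against 50 of 212 (23.6%). On chromosomes 9, 13, 14 and 17, 0 members had a site within 3 kb, where the shares of the rest were 20.2%, 11.8%, 21.5% and 17.3%. Without chromosome 7 the difference within 3 kb dropped from 7.27 to 3.94 points, with an interval that includes 0 (-0.90 to 9.49). Leaving out any other chromosome gave differences whose intervals stayed above 0, up to 9.26 points. The difference within 10 kb was 7.78 points (1.98 to 13.9) without chromosome 7 and 7.57 points (1.702 to 13.8) without chromosome 11, the lowest of the 20. With sites grouped by chromosome the interval within 10 kb was 0.97 to 19.4 points and that within 3 kb was -2.57 to 17.1 points.

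**Figure D4:**
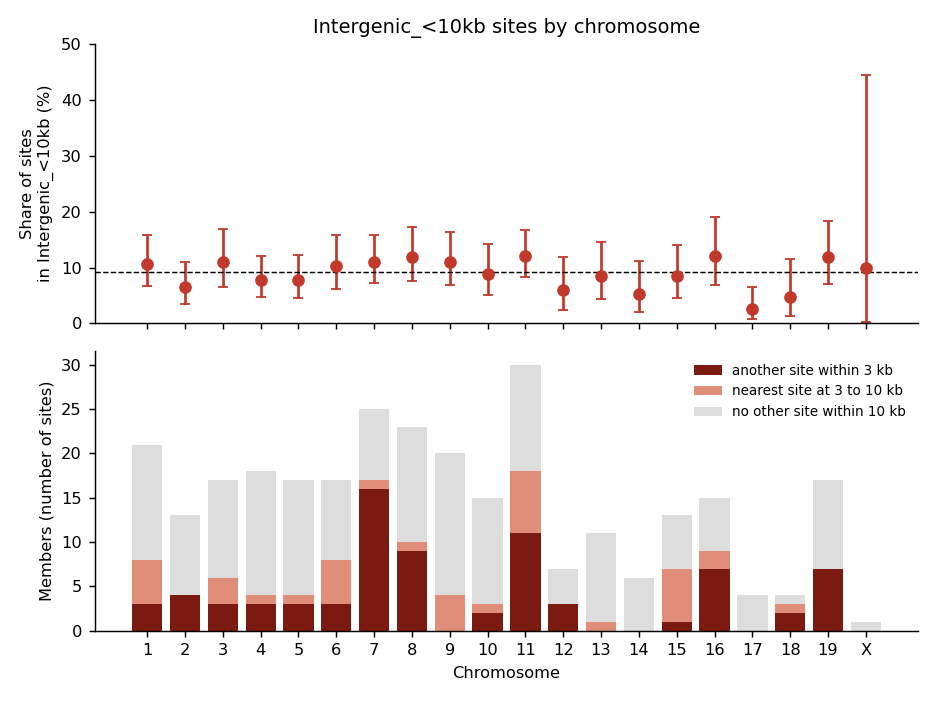
Top, share of the sites of each chromosome that are members (%), with exact 95% intervals and a dashed line at 9.14%, the share over all chromosomes; chromosome 17 is lowest, at 2.60%. Bottom, number of members per chromosome, stacked by whether another site lies within 3 kb, the nearest lies at 3 to 10 kb, or none lies within 10 kb; on chromosome 7, 16 of 25 members have a site within 3 kb.

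In the number of the site identifier, members were not told apart from the rest. What the number stands for is stated in none of the labels or file headers. The median number was 1561.5 for members (quartiles 760 and 2508) and 1614 for the remaining sites (814 and 2406). The member had the higher number in 49.9% of all pairs (46.3 to 53.5%). Against single classes the share was 51.9% (46.8 to 56.9%) for Gene_body, 49.5% (45.8 to 53.2%) for Gene_body/Intron, 47.9% (43.9 to 51.9%) for Intergenic_>10kb and 52.7% (48.6 to 56.8%) for TSS. With the numbering cut into 5 equal parts, members made up 9.78% of the sites in the first, 10.1% in the second, 7.14% in the third, 8.24% in the fourth and 10.4% in the fifth. All 5 intervals include 9.14%.

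At the ends of the numbering the intervals included 0 for the first and the last 400 numbers and the first and the last 100, but not for the first 10. Numbers up to 400 were held by 38 members, 12.9%, against 12.4% of the remaining sites, a difference of 0.54 points (-3.04 to 5.01). The last 400 numbers were held by 45 members, 15.3%, against 12.1%, a difference of 3.16 points (-0.71 to 7.86). For the first 100 numbers the difference was 1.07 points (-0.79 to 4.04) and for the last 100 it was 0.70 points (-1.08 to 3.59). Among the first 10 numbers 3 were members, namely sites 2, 3 and 8, all on chromosome 11. That is 1.02% of members against 0.24% of the remaining sites, a difference of 0.78 points that rests on these 3 sites (0.062 to 2.72). The peaks of sites 2 and 8 lie 10 bp apart. By class the interval included 0 against TSS (0.33 points, -0.93 to 2.32) and Gene_body (1.02, -0.89 to 2.96). It was above 0 against Gene_body/Intron and Intergenic_>10kb. After sites 29, 34, 36, 46, 55 and 73, the tenth member was site 80. Sites 29, 55, 73 and 80 also lay on chromosome 11, so that 7 of these 10 members were on that chromosome. It holds 7.74% of all sites and 10.2% of members. Sites 2, 8 and 29 belong to 1 cluster there. Low-numbered sites of other classes, such as 7, 10, 11, 38 and 72, lay on chromosome 11 as well. Site 34 was on chromosome 6 from 55125901 to 55126330, site 36 on chromosome 5 from 73865651 to 73866100 and site 46 on chromosome 1 from 174240191 to 174240600. Of these 10, sites 36 and 80 had no other site within 10 kb, and for the other 8 the nearest site was another member in 7 cases and a Gene_body/Intron site for site 55. The highest-numbered member was site 3217, the last entry of the table, 234.5 bp from site 46.

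Peak widths of members were also not told apart from those of the rest. The median was 309 bp in both, with quartiles of 250 and 389 bp for members and 249 and 379 bp for the remaining sites. The member had the wider peak in 50.9% of all pairs (47.4 to 54.5%), and in 48.6 to 51.9% of pairs by class, with all 4 intervals including 50%. The widest members were site 439 with 659 bp, site 73 with 629 bp, site 247 with 599 bp, site 869 with 579 bp and sites 793 and 166 with 550 bp each. The narrowest were site 3217 with 40 bp, site 2838 with 150 bp and sites 3186 and 3200 with 159 bp each. The 40 bp of site 3217 was the smallest width of the whole table, where the next was 100 bp. Peaks narrower than 200 bp were 26 members, 8.84%, and 171 remaining sites, 5.85%, a difference of 2.99 points (0.11 to 6.87). Peaks of 450 bp or more were 30 members, 10.2%, and 8.72% of the rest, a difference of 1.48 points (-1.67 to 5.59). By class that interval was above 0 against Intergenic_>10kb alone (3.79 points, 0.19 to 8.08).

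Low numbers went with wide peaks among members as among the rest. Spearman's rho of number and width was -0.59 over the 294 members and -0.51 over the 2923 remaining sites, given as a description across sites of 1 table. The median width of members was 399 bp in the first of these 5 parts and 249 bp in the last, against 370 and 239 bp in the remaining sites. Within the 5 parts, the fourth had narrower members: their median was 259 bp against 289 bp, and the member was wider in 40.9% of pairs (32.5 to 49.2%). In the third the medians were 349.5 and 309 bp, with the member wider in 57.3% of pairs (48.3 to 66.3%). Averaged over the 5 parts the share was 50.8% (47.2 to 54.3%). Of the 30 pairs of members that were each other's nearest site within 3 kb, the lower-numbered peak was the wider in 22, 73.3% (54.1 to 87.7%). In these pairs the median of the lower number was 793.5 and that of the higher number 2460.5, and 11 of the 30 pairs overlapped. Such pairs were not counted in the other classes, so 73.3% is not shown to be particular to members. In each other class low numbers also went with wide peaks (rho from -0.50 to -0.60).

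**Figure D5:**
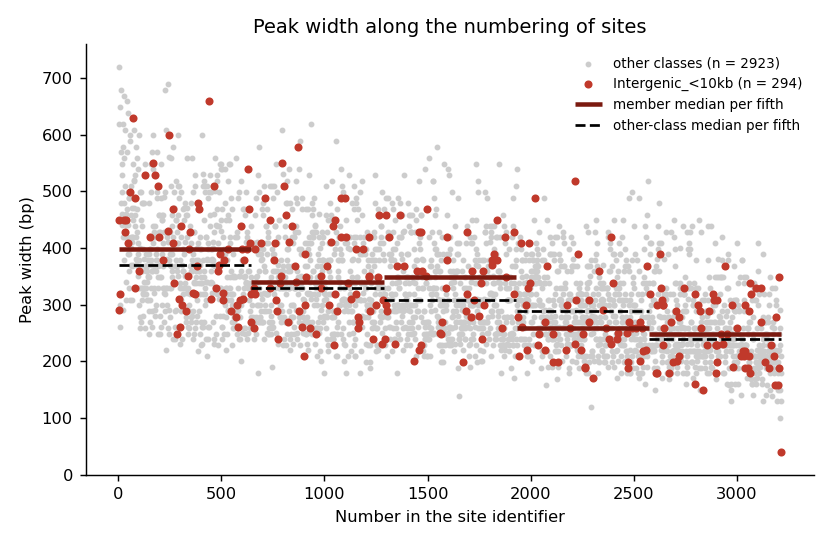
Peak width (bp) against the number in the site identifier for the 294 members (red) and the 2923 other sites (grey), with bars at the median of members (solid) and other sites (dashed) in each of 5 equal parts of the numbering. Both medians drop along the numbering, from 399 to 249 bp in members and from 370 to 239 bp in the others; the lowest point is site 3217 with 40 bp.

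In each of the 5 parts of the numbering members had a close neighbour at a higher share than the rest. In the first part 19 of 63 members, 30.2% (19.2 to 43.0%), had another site within 3 kb, against 22.5% (19.2 to 26.2%) of the remaining sites. In the last part it was 18 of 67 members, 26.9% (16.8 to 39.1%), against 17.7% (14.7 to 21.1%). The smallest gap was in the third part, at 19.6% against 18.1%. Within 10 kb the members' shares were 44.4%, 41.5%, 34.8%, 32.1% and 41.8% from the first to the fifth, each above the 36.0%, 28.9%, 27.9%, 27.97% and 25.7% of the remaining sites. The intervals of members and of the rest overlapped in the first 4 parts and came within 1 percentage point of each other in the fifth, at 29.8 to 54.5% and 22.2 to 29.5%.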

How the data were processed

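The authors deposited a table of sites, with peak start and end, a surrounding region of 3000 bp and a location class per site. The build mm9 and the tools CASAVA 1.7 and Bowtie are named in the submitters' processing notes. The way sites were found, numbered and classified was not given in the sources used here. Deposited ChIP signal profiles were left out, since each is a mean over sites of all classes.

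Width is end minus start; ends in the table finish in 0 or 1, which moves a width by up to 1 bp. Shares carry exact (Clopper-Pearson) 95% intervals and differences Newcombe intervals. Shares of pairs carry DeLong intervals. Intervals treat sites as independent and cover counting error only, except those that allow for clusters or group sites by chromosome. These last sum the deviations of sites from their group's share within each cluster or chromosome. The intervals stand in for a test, and no p-value was computed. Python 3.11.15, pandas 2.3.3 and scipy 1.17.1 were used, and the functions were tested on simulated data. Named sites were the 10 members of lowest number and that of highest number, the 5 widest, the 3 narrowest, the 5 closest to another site and the most isolated, those in the clusters with most members or most sites, and those within 3 kb of a TSS site; ties and the neighbours of these sites were named too. Members, lists and measures were chosen with earlier results of these data known.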

Additional observations from a re-analysis of the deposited data

How the results depend on the processing

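The difference within 10 kb kept its sign and an interval above 0 under all 31 alternatives (7.17 to 14.4 points), among them windows of 20 and 50 kb, distances between peak edges, and only the first 50% of the numbers. The difference within 3 kb did so under 28 of 31. Its interval included 0 with overlapping peaks merged (4.29 points), without chromosome 7 (3.94 points) and with sites grouped by chromosome (7.27 points with a wider interval); the cause was not tested. With peaks within 10 bp also merged it was 4.38 points (0.23 to 9.37). The share of pairs for the site number was 50.0002% without chromosome X, against 49.9% with it, and 47.9 to 49.99% under 4 more alternatives. That for the width was 50.8 to 52.7% under 6. All intervals of these shares included 50%. Merging, grouping by chromosome or cluster, averaging within chromosomes, and leaving out each chromosome for the 2 windows were chosen after seeing the data. The share of sites with an E-box was not run, because the sequences at hand are of another build. No paired analysis was possible because the results come from a table of sites with no value per library.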
